A study of Bos taurus with 138 samples.

Results

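The genes described here build the meiotic chromosome axis and the structure that joins paired chromosomes, or act in meiotic recombination. They are the synaptonemal complex genes SYCP1, SYCP2 and SYCP3, the HORMA-domain genes HORMAD1 and HORMAD2, the meiotic cohesin genes SMC1B, STAG3 and REC8, and the recombination genes MEIOB and DMC1. These 10 genes were taken by symbol from the 16706 gene symbols of the count table, and all 10 were among the 14612 genes that passed the filter on low counts. REC8, MEIOB and DMC1 passed it at very low levels.

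In meiosis, sister chromatids are held together by cohesin rings that contain meiosis-specific subunits. SYCP2 and SYCP3 coat this axis as lateral elements, the HORMAD proteins mark axes that have not yet paired, and SYCP1 forms the transverse filaments that zip the paired axes together. In a female this takes place in the fetal ovary, so the oocytes of an adult cow have long passed synapsis. They still depend on meiotic cohesin to hold their chromosomes until the meiotic divisions, and the embryo then divides by mitosis.

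Libraries came from Bos taurus GV oocytes (germinal vesicle, before maturation), MII oocytes (matured in vitro to metaphase II) and in vitro 2-cell, 8-cell, morula and blastocyst stages. No group carried a treatment or genetic change, and all material for the gradients met cycloheximide, which holds ribosomes on mRNA, before freezing. At each of the 6 stages, lysate from pooled oocytes or embryos was spun through 2 sucrose gradients (A and B) and cut into 10 fractions, F1 at the top to F10 at the bottom, and whole oocytes or embryos of the same batch gave 3 transcriptomes (A, B and C). This made 120 fraction libraries and 18 transcriptomes. Oocytes came from slaughterhouse ovaries and semen from a single bull, and the embryos were picked by grade, which limits the groups as a model of embryos in the cow. Total counts ran from 1229382 to 17342859 in the fraction libraries, with the shallowest at the morula, and from 3269386 to 11812567 in the transcriptomes. The summed level of 10 oocyte markers was 21078 to 23459 CPM in GV transcriptomes and 491 to 924 CPM at the 8-cell stage, and the sum of 6 trophectoderm markers reached 5051 to 5872 CPM in blastocysts.

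Levels are CPM, read counts scaled to a common library total after TMM scaling, so a value is a share of a library and not an amount of RNA. They are compared between samples for a single gene, not between genes, whose lengths were not used. Since pools of cells were sequenced, fewer cells with a transcript and less transcript per cell cannot be told apart. F8 to F10 summed within a gradient are called polysomes below, and F3 to F5 light fractions.

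In whole oocytes and embryos, 7 of the 10 members changed in at least 1 consecutive step. The share of all genes that did so was not counted, and the step from 2-cell to 8-cell alone called 50.1% of them. SMC1B and STAG3 were high in oocytes and 2-cell embryos and fell at the 8-cell stage and again at the morula, SYCP1 and SYCP3 fell between morula and blastocyst, and HORMAD1, DMC1 and MEIOB rose at the 8-cell stage. SYCP2, HORMAD2 and REC8 had no called step in the joint fit with the polysome pools, whereas a fit of the transcriptomes alone called steps of SYCP2 and HORMAD2. A change was called at an adjusted p below 0.05 and a fold change above 2 (edgeR's quasi-likelihood test with Benjamini-Hochberg adjustment over all genes). From GV to MII, 0 of 10 members were called, beside 17.1% of all genes, and 1 member had an unadjusted p below 0.05. From MII to 2-cell the count was again 0, beside 12% of all genes, with 2 members at an unadjusted p below 0.05. DESeq2 called 0 and 1 members in these steps. From 2-cell to 8-cell 5 of 10 members were called, 3 higher and 2 lower, beside 50.1% of all genes. From 8-cell to morula 3 fell, beside 14.4% of all genes, and from morula to blastocyst 2 fell, beside 21.6%. Fitting the transcriptomes without the more variable polysome pools raised the count over the 5 steps from 10 to 24, so a step not called here may still hold a change.

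**Figure D1:**
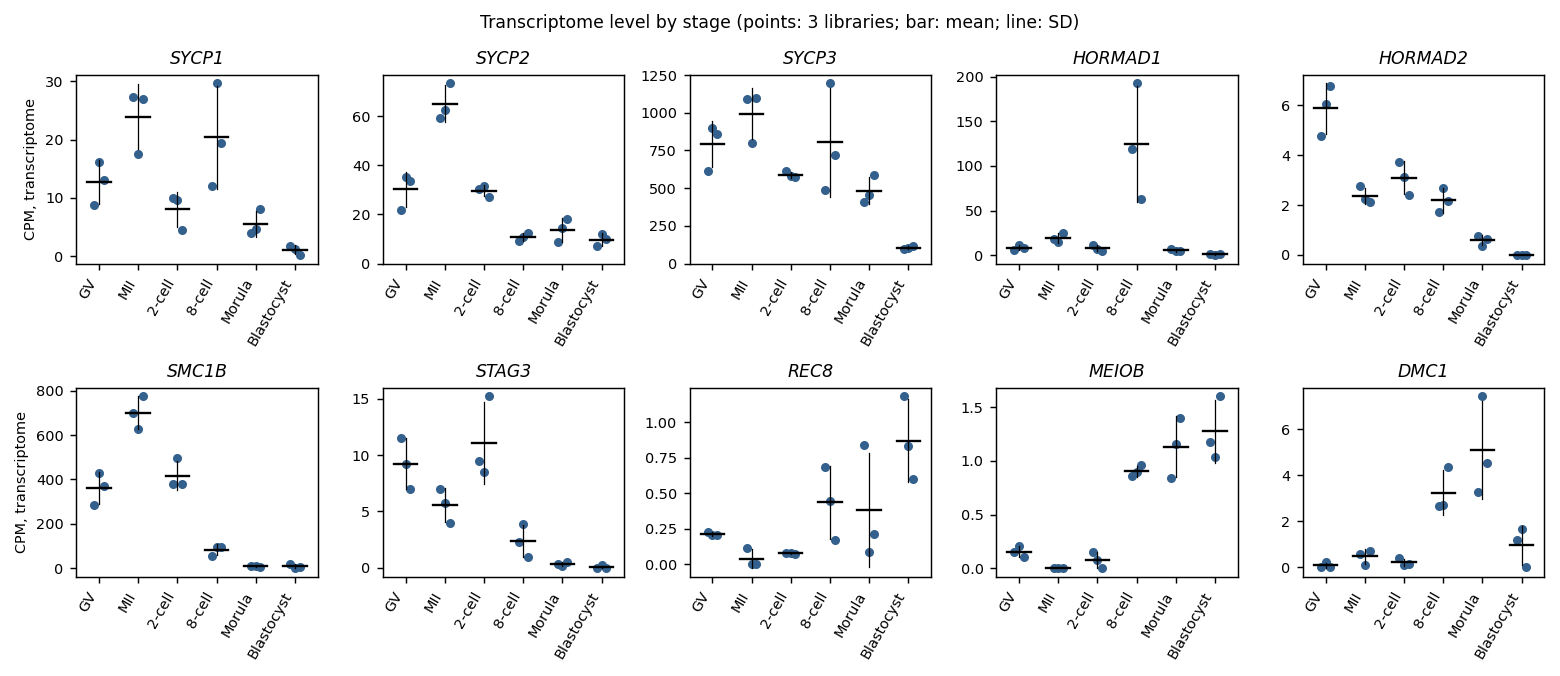
Transcriptome level of each member in CPM (linear axis, a scale of its own for each gene) at the 6 stages, with a point for each of 3 libraries, the mean as a bar and the SD as a line. SMC1B stood at 702 CPM in MII oocytes and 8.16 CPM in morulae, and HORMAD1 at 125 CPM in 8-cell embryos against 19.1 CPM or less at each other stage.

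SMC1B is the meiotic variant of the SMC1 arm of the cohesin ring. Its transcriptome level was 285, 429 and 372 CPM in the GV libraries, 702, 628 and 775 CPM in MII, and 380, 496 and 378 CPM in 2-cell embryos. It was 53.8, 95.1 and 97.3 CPM in 8-cell embryos, 9.15, 10.3 and 5.06 CPM in morulae, and 18.5, 2.07 and 4.2 CPM in blastocysts. Every oocyte and 2-cell library thus lay above every 8-cell library, and those above every morula and blastocyst library. SMC1B fell 5.09-fold from 2-cell to 8-cell (log2 fold change -2.35 ± 0.59 SE, adjusted p = 0.0021) and 10-fold from 8-cell to morula (-3.33 ± 0.63 SE, adjusted p = 0.000736), and both calls held with each library left out in turn. By the study's definition of a maternal gene, over 4-fold higher in GV and in MII than at each of the 8-cell, morula and blastocyst stages, SMC1B was the only member called, and not without 8-cell replicate A. The definition holds for 6.79% of all genes, and 0 members met the mirrored definition of an embryonic gene, which 6.69% of all genes did.

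STAG3, the meiotic member of the STAG family that binds the ring, read 11.5, 9.23 and 6.99 CPM in GV transcriptomes, 6.98, 5.78 and 3.93 CPM in MII, and 9.43, 8.47 and 15.2 CPM in 2-cell embryos. At the 8-cell stage it was 2.31, 3.85 and 0.957 CPM, and it did not pass 0.539 CPM in any morula or blastocyst library. It fell 4.64-fold from 2-cell to 8-cell (-2.21 ± 0.71 SE, adjusted p = 0.0115) and 7.14-fold from 8-cell to morula (-2.84 ± 0.83 SE, adjusted p = 0.0203). The first call was lost without 8-cell replicate C (adjusted p = 0.0599), and the second without 8-cell replicate B (0.0923), morula replicate A (0.0818) or morula replicate B (0.097). REC8, the meiotic kleisin that closes the ring, was close to the limit of detection throughout. Its highest transcriptome value was 1.18 CPM, in a blastocyst library, its mean lay between 0.0382 CPM in MII and 0.868 CPM in blastocysts, and none of the 5 steps was called. The floor of 3 counts over the MII transcriptomes corresponds to 0.111 CPM, above the REC8 mean at that stage.

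SYCP3 stood high in every transcriptome up to the morula. It read 616, 897 and 862 CPM in GV, 1088, 800 and 1095 CPM in MII, 613, 580 and 577 CPM in 2-cell, and 490, 1198 and 722 CPM in 8-cell embryos. Morulae gave 411, 453 and 588 CPM, and blastocysts 94.4, 101 and 115 CPM. Ranges of neighbouring stages overlapped in part up to the morula, whereas all blastocyst libraries lay below all others. The fall from morula to blastocyst was 4.68-fold (-2.23 ± 0.37 SE, adjusted p = 0.0001) and held with each library left out. CHPT1 overlaps the SYCP3 locus in the RefSeq annotation, and TSPAN2 overlaps that of SYCP1. The strand setting of the counting is not given in the sources used here, so reads from overlapping stretches cannot be told apart.

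SYCP1 read 12.7 ± 3.71 CPM (SD, n = 3) in GV, 24 ± 5.48 in MII, 8 ± 3.09 in 2-cell, 20.4 ± 8.87 in 8-cell, 5.55 ± 2.22 in morula and 1.07 ± 0.796 CPM in blastocyst transcriptomes. The order of the stages matched that of SYCP3, and 4 of the 5 pairs of neighbours in that order overlapped. The fall from morula to blastocyst was 5.31-fold (-2.41 ± 0.75 SE, adjusted p = 0.0216). It was not called without morula replicate C (adjusted p = 0.0906), blastocyst replicate B (0.0565) or blastocyst replicate C (0.11). From 8-cell to morula SYCP1 differed by -1.88 ± 0.67 SE (adjusted p = 0.0632), a step that DESeq2 called (-2.02, adjusted p = 0.00625), as did edgeR on the transcriptomes alone (adjusted p = 0.000698) and without any 1 of the 4 polysome pools of these stages (0.0255 to 0.0429). DESeq2 also called the step from MII to 2-cell (-1.64, adjusted p = 0.0355). SYCP2 was highest in MII, at 59.3, 62.3 and 73.6 CPM, above 21.9 to 35.1 CPM in GV and 27.1 to 31.6 CPM in 2-cell embryos. It lay between 7.06 and 18.3 CPM in every later library, and no consecutive step of SYCP2 was called in the joint fit. With the transcriptomes fitted alone, its rise from GV to MII was called (1.11, adjusted p = 0.00146). So were its falls from MII to 2-cell (-1.15, adjusted p = 0.0016) and from 2-cell to 8-cell (-1.44, adjusted p = 5.39e-05). The step from 2-cell to 8-cell was called without either 8-cell polysome pool (-1.47, adjusted p = 0.0193).

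HORMAD1 was highest at the 8-cell stage. Its transcriptome level was 6.15, 11 and 7.81 CPM in GV, 18.1, 14.3 and 25 CPM in MII and 11.2, 7.11 and 5.04 CPM in 2-cell embryos. In 8-cell embryos it was 119, 193 and 63 CPM, followed by 7.28, 5.1 and 4.2 CPM in morulae and 1.76, 0.207 and 1.2 CPM in blastocysts. The lowest 8-cell library exceeded the highest library of any other stage, and all MII libraries lay above all GV and 2-cell libraries. With the transcriptomes fitted alone, the smaller rise from GV to MII (1.2, adjusted p = 0.0118) and fall from MII to 2-cell (-1.31, adjusted p = 0.00877) were called too. The rise from 2-cell to 8-cell was 16.1-fold (4.01 ± 1.02 SE, adjusted p = 0.00241) and the fall to the morula 22.6-fold (-4.50 ± 1.05 SE, adjusted p = 0.00485), and both calls held without any single library. Markers of cumulus cells were also present in these libraries. The sum of 9 of the 10 cumulus markers (without STAR, which GV oocytes held at 543 CPM) was 138 to 351 CPM in 8-cell transcriptomes against 104 to 115 CPM in 2-cell and 7.97 to 14 CPM in morula transcriptomes. In MII transcriptomes, where HORMAD1 was 19.1 CPM, that sum was 287 to 382 CPM. With STAR, the sum of all 10 was 174 to 419 CPM in 8-cell and 340 to 385 CPM in 2-cell transcriptomes. It was 14.9 to 22.5 CPM in morula and 470 to 581 CPM in MII transcriptomes. The direction from 2-cell to 8-cell thus depends on STAR, and HAS2 alone read 104 CPM in 2-cell transcriptomes. From MII to 8-cell transcriptomes CYP11A1 went from 16 to 86.2 CPM and HSD3B1 from 0.865 to 48.6 CPM, both of them steroid-producing enzymes, whereas HAS2 went from 180 to 24.5 CPM and TNFAIP6 from 124 to 29.4 CPM, both of the expanding cumulus matrix. The study's methods describe removal of cumulus cells, digestion of the zona and a check for attached cells. The part of cumulus RNA in the HORMAD1 level was not tested.

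HORMAD2, the relative of HORMAD1 on unpaired axes, was 5.87 ± 1.02 CPM (SD, n = 3) in GV, 2.37 ± 0.328 in MII, 3.08 ± 0.661 in 2-cell, 2.19 ± 0.488 in 8-cell and 0.584 ± 0.202 CPM in morula transcriptomes, with 0 counts in all 3 blastocyst libraries. No step was called in the joint fit, and that from morula to blastocyst was called without any 1 of the 4 polysome pools of these stages (log2 fold change -6.42 to -6.38). With the transcriptomes fitted alone, the falls from GV to MII (-1.30, adjusted p = 0.0141) and from 8-cell to morula (-1.89, adjusted p = 0.00315) were called. That from morula to blastocyst was called too (-5.55, adjusted p = 0.00283).

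DMC1, the meiotic recombinase that carries out strand exchange between homologues, read 0, 0.205 and 0 CPM in GV, 0.572, 0.101 and 0.714 CPM in MII and 0.38, 0.0799 and 0.15 CPM in 2-cell transcriptomes. It was 2.66, 2.69 and 4.35 CPM in 8-cell embryos, 3.27, 7.42 and 4.53 CPM in morulae and 1.18, 1.66 and 0 CPM in blastocysts. The 8-cell and morula libraries all lay above every earlier library. The rise from 2-cell to 8-cell was 15.3-fold (3.94 ± 1.28 SE, adjusted p = 0.0157) and was lost without 2-cell replicate B (adjusted p = 0.0644) or C (0.0585). MEIOB, a single-strand DNA-binding partner in meiotic recombination, was at 0 in all 3 MII libraries and at most 0.205 CPM in GV and 2-cell libraries. It then stood at 0.857, 0.896 and 0.957 CPM in 8-cell, 0.84 to 1.4 CPM in morula and 1.04 to 1.6 CPM in blastocyst transcriptomes. Its 10.8-fold rise from 2-cell to 8-cell (3.44 ± 1.22 SE, adjusted p = 0.0221) was lost without 2-cell replicate B (adjusted p = 0.0627) or C (0.0847).

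Against the transcriptome of the same stage, more members were called lower than higher in the polysome pools at each stage, and STAG3 was the only member called higher. SYCP1, SYCP3 and SMC1B were lower in polysomes at all 6 stages and STAG3 was higher at 4. The shares of all genes lower at all 6 stages or higher at 4 were not counted. In GV oocytes 4 of 10 members were lower and 1 higher at an adjusted p below 0.05, beside 17.7% of all genes lower and 22.2% higher. In MII oocytes 6 were lower and 1 higher, beside 26.7% and 30.8% of all genes, and in 2-cell embryos 7 were lower and 1 higher, beside 21.9% and 29.1%. In 8-cell embryos 6 were lower and 0 higher, beside 31.0% and 28.0%, and in morulae 7 were lower and 0 higher, beside 25.2% and 26.5%. In blastocysts 5 were lower and 1 higher, beside 20.1% and 20% of all genes. In GV DESeq2 called 7 lower and 1 higher, and by edgeR 9 members had an unadjusted p below 0.05. The median log2 difference over the 10 members was -3.03 in GV, -3.83 in MII, -3.63 in 2-cell, -2.28 in 8-cell, -5.38 in morula and -3.06 in blastocyst. Over all genes it lay between -0.26, at the 8-cell stage, and 0.18, in 2-cell embryos.

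**Figure D2:**
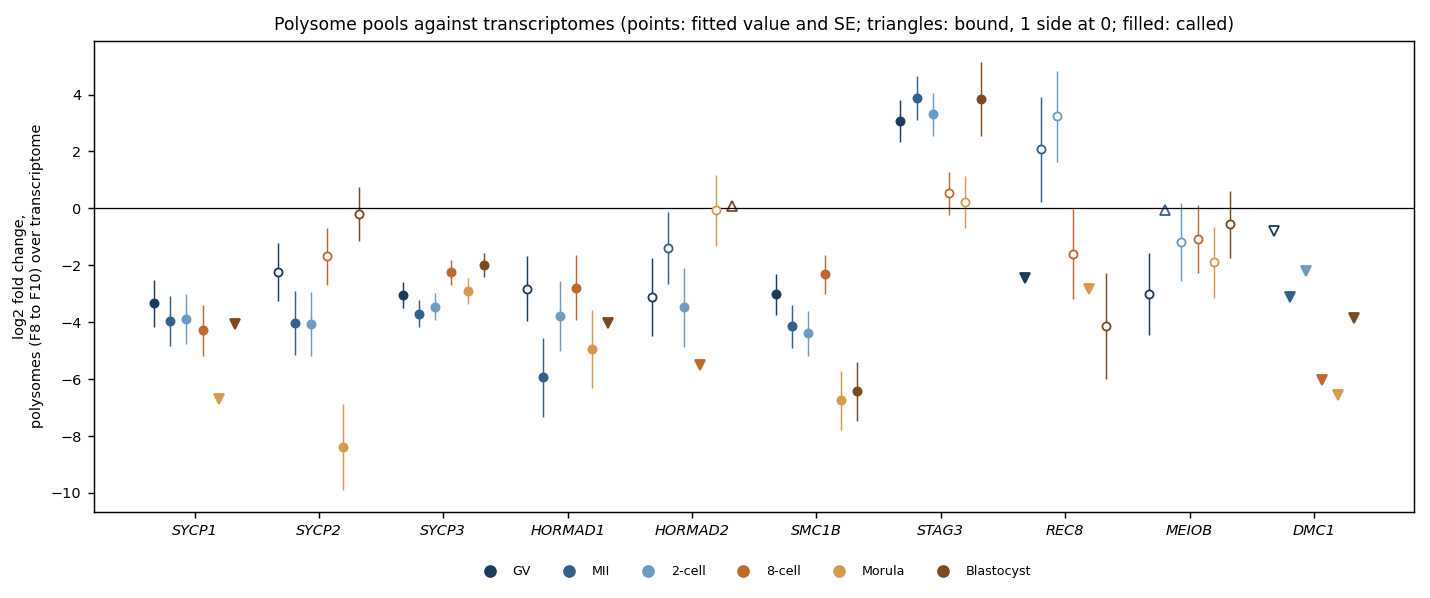
Log2 fold change of polysome pools (F8 to F10, n = 2) over transcriptomes (n = 3) for each member and stage. Circles are fitted values with their SE, triangles are bounds where 1 side is at 0 counts, and filled symbols were called. SYCP1, SYCP3 and SMC1B lie below 0 at all 6 stages and STAG3 above 0 at all 6, at 0.23 in morulae and 0.53 at the 8-cell stage without a call, and the morula value turned to -5.56 without polysome replicate B.

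SYCP3 read 94 and 97.7 CPM in the GV pools, 73.4 and 79.2 CPM in MII, 52.9 and 54.9 CPM in 2-cell, 240 and 97.8 CPM in 8-cell, 91 and 38.5 CPM in morula and 37.2 and 14.8 CPM in blastocyst pools. At each stage both pools lay below all 3 transcriptomes. The difference was 8.26-fold in GV (-3.05 ± 0.45 SE, adjusted p = 7.96e-06), 13-fold in MII, 10.9-fold in 2-cell, 4.75-fold in 8-cell, 7.48-fold in morula and 3.98-fold in blastocyst (-1.99 ± 0.43 SE, adjusted p = 0.000709). SMC1B was 44.5 ± 2.94 CPM (SD, n = 2) in GV pools, 39.7 ± 7.52 in MII, 20 ± 1.53 in 2-cell and 16.6 ± 17.6 CPM in 8-cell pools, and at most 0.174 CPM in any later pool. It was 8.13-fold lower than the transcriptome in GV, 17.7-fold in MII (-4.14 ± 0.76 SE, adjusted p = 6.56e-05), 20.9-fold in 2-cell, 4.94-fold in 8-cell, 107-fold in morula and 86-fold in blastocyst. The 8-cell call was lost without polysome replicate B (adjusted p = 0.0755), and the other 5 held without any single library.

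SYCP1 was 0.369 to 2.31 CPM in the pools of the first 4 stages and had 0 counts in both morula and both blastocyst pools. It was 10.1-fold lower in GV, 15.4-fold in MII, 14.8-fold in 2-cell and 19.6-fold in 8-cell, at least 103-fold lower in morula and at least 16.6-fold lower in blastocyst, with the bounds set by a floor of 3 counts over the group. SYCP2 was 16.2-fold lower in MII (-4.02 ± 1.12 SE, adjusted p = 0.00379), 16.8-fold in 2-cell and 334-fold in morula, where a single pool held 0.0575 CPM. The 2-cell call was lost without polysome replicate B (adjusted p = 0.063). HORMAD1 was 61.5-fold lower in MII, 13.7-fold in 2-cell, 6.85-fold in 8-cell, 30.9-fold in morula and at least 16.4-fold in blastocyst. The 2-cell call was lost without polysome replicate B (adjusted p = 0.0938), the blastocyst call without either pool (0.0583 and 0.0611), and the 8-cell call without either pool (0.102 and 0.088) or transcriptome replicate A (0.0619) or B (0.121). The MII and morula calls held.

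DMC1 had 0 counts in all 12 polysome pools. At the 8-cell stage it was at least 66-fold lower in polysomes (adjusted p = 0.00104) and in morulae at least 93.8-fold lower (adjusted p = 0.000925). The bounds in MII, 2-cell and blastocyst were 8.59-fold, 4.65-fold and 14.6-fold, and each of those 3 calls was lost without either pool, the 2-cell one also without transcriptome replicate A. HORMAD2 was at least 44.8-fold lower in 8-cell polysomes, where both pools were at 0 (adjusted p = 0.00109), and 11.2-fold lower in 2-cell polysomes (adjusted p = 0.0439), a call that was lost without either 2-cell pool (adjusted p = 0.224 and 0.0749) and without any of the transcriptomes up to the morula (0.0504 to 0.0797). REC8 was at 0 in the GV and morula pools, at least 5.41-fold and 7.06-fold lower, and lost both calls without either pool and without 1 or more transcriptomes (adjusted p from 0.0503 to 0.176). REC8 had the higher mean in polysomes in MII (0.179 against 0.0382 CPM) and 2-cell embryos (0.778 against 0.0771 CPM, with 1 pool at 0), without a call. HORMAD2 in blastocysts and MEIOB in MII were at 0 in the transcriptomes and at 0.239 and 0.108 CPM in the pools, also without a call. With polysome replicate B of the stage left out, REC8 in 2-cell embryos (adjusted p = 0.0393) and MEIOB in MII (0.0327) were called higher. MEIOB was called at no stage, with 0.74 and 0.979 CPM in blastocyst pools against 1.27 ± 0.294 CPM (SD, n = 3) in blastocyst transcriptomes.

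STAG3 ran the other way. Its pools held 88.8 and 67 CPM in GV, 122 and 41.3 CPM in MII and 98.4 and 120 CPM in 2-cell embryos, and every one of them exceeded all 3 transcriptomes of its stage. It was 8.41-fold higher in polysomes in GV (3.07 ± 0.75 SE, adjusted p = 0.00208), 14.7-fold in MII (3.87 ± 0.77 SE, adjusted p = 0.000168) and 9.88-fold in 2-cell (3.30 ± 0.76 SE, adjusted p = 0.000815). These calls held with each library left out. At the 8-cell stage the pools held 1.64 and 5.18 CPM against 2.37 ± 1.45 CPM (SD, n = 3) in transcriptomes, and no difference was called. With F6 to F10 taken as polysomes it was higher (2.41, adjusted p = 0.00291). In morulae the pools held 0 and 0.719 CPM against 0.332 ± 0.186 CPM (SD, n = 3), a difference of 0.23 that was not called and that turned to -5.56 without polysome replicate B (adjusted p = 0.0231). In blastocysts, 1.61 and 0.724 CPM against 0, 0.207 and 0 CPM gave a 14.3-fold difference (adjusted p = 0.0217) that was lost without polysome replicate A (adjusted p = 0.116) or transcriptome replicate A (0.0638) or C (0.0878).

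The difference between fractions and transcriptome was not limited to F8 to F10. Of the 20 fraction libraries of a stage, F1 and F2 included, all 20 lay below all 3 transcriptomes for SYCP1 and SMC1B at all 6 stages, and for SYCP3 up to the morula. In GV this was so for 6 of 10 members, beside 22.8% of all genes, in MII for 6, beside 24.2%, in 2-cell for 6, beside 21.1%, and in 8-cell for 4, beside 17.3%. In morula it was so for 6, beside 14%, and in blastocyst for 4, beside 9.72%. Some of these cases rest on values under the floor of 3 counts. For DMC1 in 2-cell embryos the lowest transcriptome held 0.105 CPM and the highest fraction library 0.0892 CPM. In blastocysts the lowest transcriptomes of SYCP1 and HORMAD1 held 0.201 and 0.213 CPM. For STAG3 all 20 libraries lay above all 3 transcriptomes in GV and MII, as for 15.5% and 10.6% of all genes, and 19 of 20 did so in 2-cell embryos, where 7.45% of all genes had all 20 above. Fractions came from a cleared lysate spun through sucrose and transcriptomes from whole oocytes or embryos, and this and ribosome load cannot be told apart.

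Along the gradients, SYCP3 and SMC1B were low in the light fractions of GV oocytes and rose toward F10. SYCP3 in gradient A of GV oocytes went from 11.1, 7.07 and 13 CPM in F3 to F5 over 16.5 and 24.9 CPM in F6 and F7 to 64.7, 89.8 and 119 CPM in F8 to F10. Gradient B gave 11, 7.6 and 10.2 CPM, then 18.5 and 41.3 CPM, then 51.1, 107 and 124 CPM. Both gradients therefore rose about in step, with every heavy fraction above every light one. Spearman's rho of the level with the fraction number over F3 to F10 was 0.95 for SYCP3 and 0.93 for SMC1B (two-sided permutation test over 16 libraries, p = 1e-05, the smallest that the permutations can give, adjusted p = 0.000255). SYCP2 rose as well (rho = 0.81, adjusted p = 0.00233), though not without gradient B (adjusted p = 0.0911). STAG3 fell (rho = -0.82, adjusted p = 0.00233), but rho was -0.57 without TMM factors and -0.08 over F1 to F10, and neither was called, nor was either gradient alone (adjusted p = 0.0698 and 0.127). These were the 4 members tested in GV, beside 36.8% of all genes called. Neighbouring fractions of a gradient are not independent, so these p-values are too small.

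**Figure D3:**
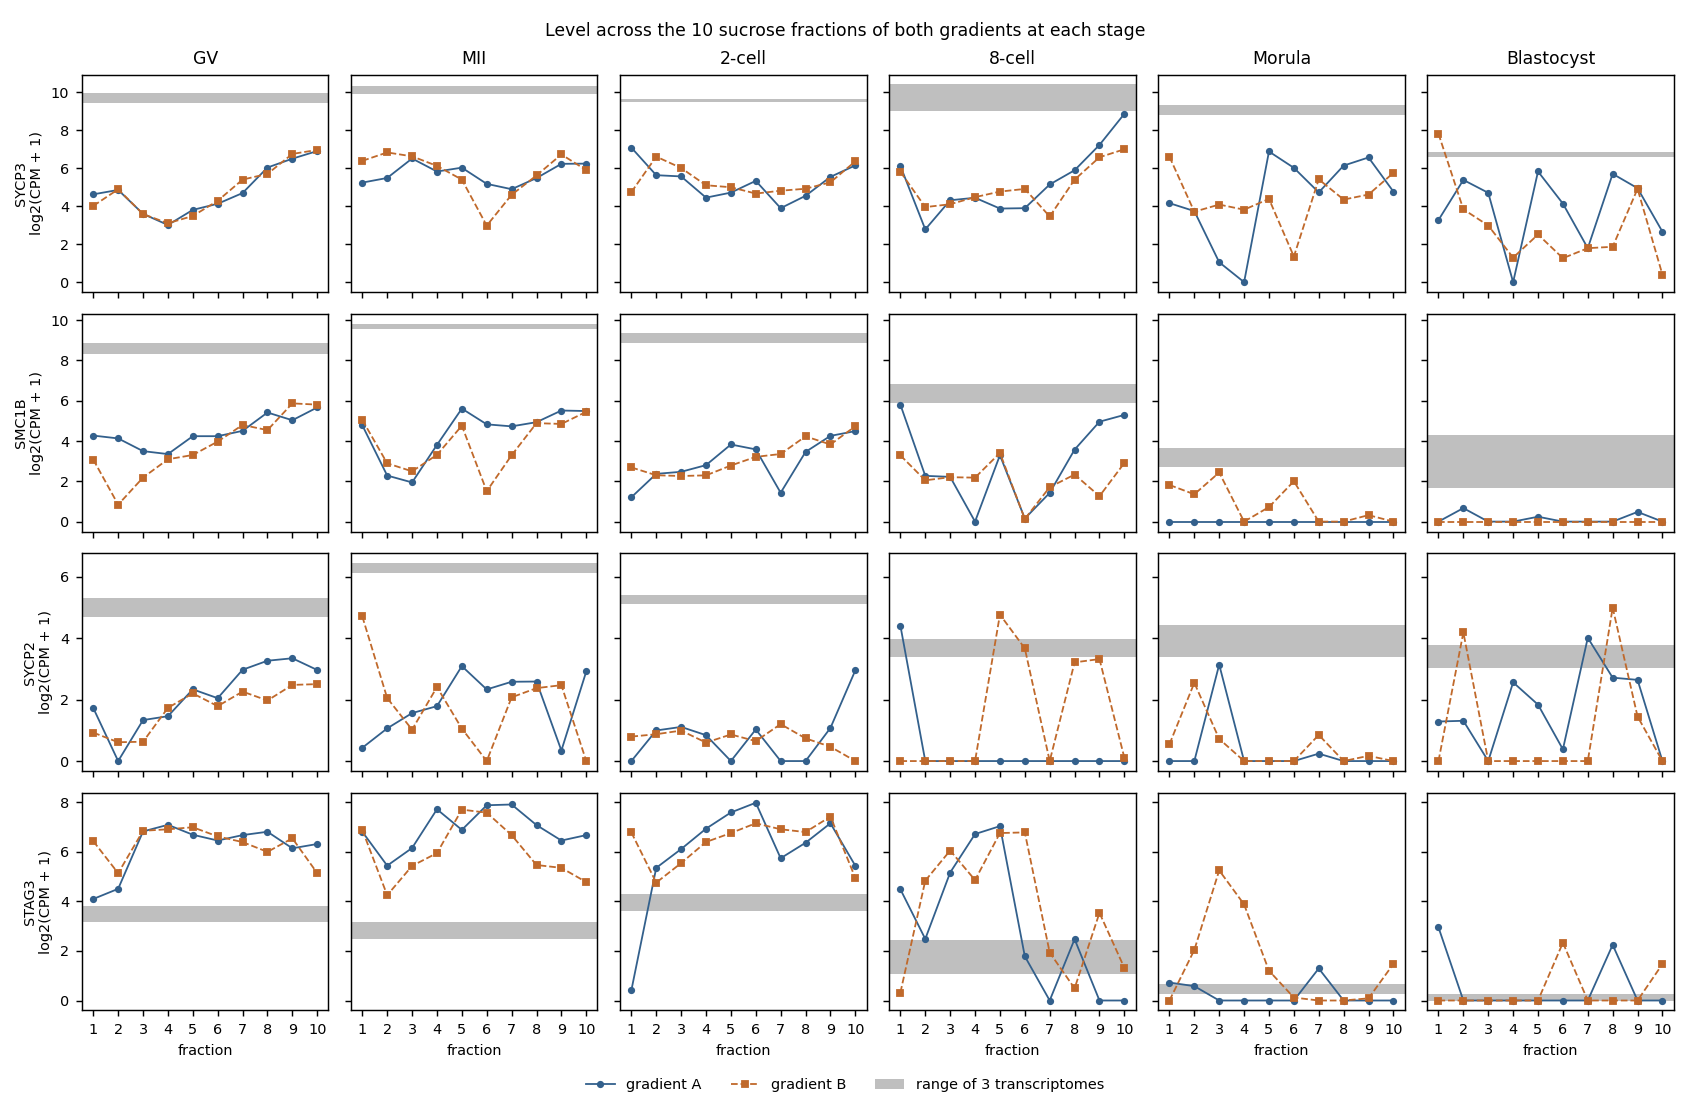
Level of SYCP3, SMC1B, SYCP2 and STAG3 as log2(CPM + 1) in F1 to F10 at the 6 stages, with gradient A as circles, gradient B as squares and the range of the 3 transcriptomes as a grey band. In GV oocytes SYCP3 rose to 119 and 124 CPM in F10, below the transcriptome band, while STAG3 lay above its band in all 20 libraries.

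In MII oocytes only SMC1B of 5 members tested was called (rho = 0.66, adjusted p = 0.0405), beside 19.3% of all genes, and not with either gradient alone (adjusted p = 0.28 and 0.316) or with ranks taken within gradients. In 2-cell embryos SMC1B was called of 4 tested (rho = 0.78, adjusted p = 0.0096), beside 20.3%. It went from 3.8 to 4.55 CPM in F3 to 21.5 and 25.6 CPM in F10, and the call was lost without gradient B (adjusted p = 0.415). In 8-cell embryos SYCP3 rose (rho = 0.77, adjusted p = 0.0127) and STAG3 fell (rho = -0.71, adjusted p = 0.0272), 2 of 5 members tested beside 16.5% of all genes, and both calls were lost over F1 to F10 (rho 0.53 and -0.46) and with either gradient alone. In that stage STAG3 was 28 to 130 CPM in F3 to F5 of both gradients and at most 10.6 CPM in F8 to F10. In morulae and blastocysts 0 of 2 members tested were called, beside 1.63% and 7.50% of all genes, with 1 and 0 members at an unadjusted p below 0.05.

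With the gradient as the replicate, heavy (F8 to F10) against light fractions gave a single call. SYCP3 was 7.78-fold higher in heavy fractions of 8-cell embryos (2.96 ± 0.84 SE, adjusted p = 0.0363), beside 9.35% of all genes called. F8 to F10 held 58.5, 149 and 466 CPM in gradient A and 41.2, 94.7 and 127 CPM in gradient B, against 13.7 to 26.3 CPM in F3 to F5. The call was lost without gradient A (log2 fold change 2.06, adjusted p = 0.327), without gradient B (adjusted p = 0.0757) and without any gradient of GV, MII or 2-cell (0.0558 to 0.0643). With the gradient as a block, since light and heavy pools of the same letter share it, STAG3 was called as well, lower in heavy fractions of 8-cell embryos (log2 fold change -4.77, adjusted p = 0.0161). At that stage 4 members had an unadjusted p below 0.05 and DESeq2 called 3. Beside SYCP3 these were HORMAD1, higher in heavy fractions (9.92, adjusted p = 0.00723), and STAG3, lower (-4.68, adjusted p = 0.00455). In GV, MII and 2-cell 0 members were called, beside 0.498%, 0.437% and 0% of all genes, with 1, 0 and 0 members at an unadjusted p below 0.05 and 1, 0 and 0 called by DESeq2. In morulae and blastocysts 0 members were called, beside 1.59% and 1.43% of all genes, with 3 and 1 at an unadjusted p below 0.05 and 2 and 1 called by DESeq2. In GV oocytes SYCP3 differed 3.18 ± 0.85 SE on the log2 scale (adjusted p = 0.121).

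Later in development the fraction libraries held several of these transcripts only here and there. At the 8-cell stage SMC1B was still above 0 in 19 of 20 libraries and STAG3 in 17, and in morulae in 6 and 10. MEIOB went the other way, from 8 of 20 libraries in GV to 15 in blastocysts. The median total count of the fraction libraries was 11368081 in GV and 6576608 in blastocysts. HORMAD1 was above 0 in 6 of 20 libraries at the 8-cell stage, with 127 CPM in F1 and 44.4 CPM in F9 of gradient A and 28.4 and 26.8 CPM in F8 and F10 of gradient B, and 0.091 CPM or less in each other library. SYCP2 was above 0 in 6 of 20 libraries at the same stage, 5 of them in gradient B or F1 of gradient A at 8.26 to 26.2 CPM. SYCP1 was seen in 1 of 20 morula libraries and 0 of 20 blastocyst libraries, and DMC1 in 8 of all 120 fraction libraries. SYCP3 stayed above 0 in 19 of 20 libraries in both morula and blastocyst. Such scattered values make the spread between gradients wide, and levels from 1 library decide several of the calls below.

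**Figure D4:**
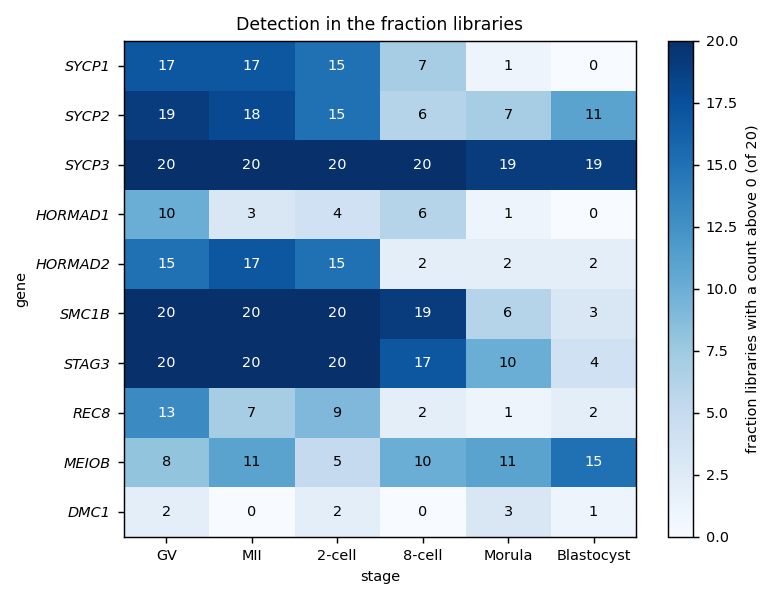
Number of the 20 fraction libraries of each stage with a count above 0, for each member. SYCP3 was found in at least 19 at every stage, while SYCP1 dropped from 17 in GV to 7 at the 8-cell stage and 0 in blastocysts.

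Between stages, 14 calls of members in polysomes were made, all of them from the step between 2-cell and 8-cell on. With the polysome pools fitted without the transcriptomes, 2 of the 14 were kept, STAG3 from 2-cell to 8-cell and SMC1B from 8-cell to morula, and the other 12 were not called. From GV to MII and from MII to 2-cell 0 of 10 were called, beside 5.37% and 8.51% of all genes, with 1 and 0 members at an unadjusted p below 0.05 and 0 called by DESeq2. From 2-cell to 8-cell 5 were called, beside 46.3% of all genes. STAG3 fell 31.8-fold (-4.99 ± 0.95 SE, adjusted p = 0.000192), from 98.4 and 120 CPM to 1.64 and 5.18 CPM. HORMAD1 rose 32.2-fold, from 1.11 and 0 CPM to 17.8 and 18.8 CPM (5.01 ± 1.33 SE, adjusted p = 0.0039). Both calls held without any single transcriptome or pool. Of F8 to F10 in gradient A, only F9 held HORMAD1 reads, 433 counts at the 8-cell and 40 at the 2-cell stage. Single fractions were not left out. SYCP3 rose 3.13-fold (adjusted p = 0.00428), but not without 8-cell replicate A (adjusted p = 0.143). The call of HORMAD2, lower by at least 5.53-fold, was lost without either 8-cell pool (adjusted p = 0.0736 and 0.0953) or 2-cell replicate B (0.106). That of MEIOB, 11.6-fold higher (adjusted p = 0.0464), was lost without most single libraries (0.0501 to 0.251). SYCP2, at 0.92 without a call, was called in opposite directions without 8-cell replicate A (1.91, adjusted p = 0.04) and without 8-cell replicate B (-7.94, adjusted p = 0.000399).

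From 8-cell to morula 7 of 10 members were called in polysomes, beside 36.2% of all genes. SMC1B fell from 29.1 and 4.2 CPM to 0 and 0.115 CPM, or 218-fold (-7.77 ± 1.07 SE, adjusted p = 9.52e-06). HORMAD1 fell 102-fold (adjusted p = 0.00149) and SYCP1 fell at least 19-fold to 0 in both pools (adjusted p = 0.000279). These calls held without any single transcriptome or pool. SYCP2 fell from 0 and 6.61 CPM to 0 and 0.0575 CPM, and without 8-cell replicate B the difference turned to 2.54 on the log2 scale (adjusted p = 0.36). The falls of STAG3 (8.77-fold) and SYCP3 (2.61-fold) were each lost without 1 of 2 libraries, 8-cell replicate B or morula replicate A for STAG3 (adjusted p = 0.0786 and 0.0662) and 8-cell replicate A or morula replicate B for SYCP3 (adjusted p = 0.363 and 0.178). HORMAD2 was higher in morulae through replicate B alone, 1.09 CPM against 0 in the other 3 pools, and without it both sides were at 0. That call was also lost without 8-cell replicate B (adjusted p = 0.056). From morula to blastocyst 2 members were called, beside 13.9% of all genes. SYCP2 rose from 0 and 0.0575 CPM to 4.7 and 12.2 CPM (7.68 ± 1.51 SE, adjusted p = 0.00185). This call held without any single transcriptome or pool, but single fractions were not left out. In blastocyst gradient B, F8 held 268 SYCP2 counts, F9 19 and F10 0, and in gradient A they held 55, 53 and 0. SYCP3 fell 2.49-fold (adjusted p = 0.0476), a call that was lost without most single libraries (log2 fold change -1.32 to -0.55).

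The change in polysomes was also set against the change in the transcriptome in the same model. From GV to MII, MII to 2-cell and 2-cell to 8-cell 0 members differed, beside 10.6%, 1.81% and 12.2% of all genes, with 2, 1 and 5 members at an unadjusted p below 0.05. DESeq2 called 0, 0 and 1. The 1 was STAG3 from 2-cell to 8-cell, lower in polysomes than in the transcriptome (-2.89, adjusted p = 0.0208). The main test gave it -2.78 ± 1.08 SE (adjusted p = 0.0946), and edgeR's likelihood ratio test called it (adjusted p = 0.0375). In the step from 2-cell to 8-cell SYCP2, at 2.38 without a call, was called at 3.37 without 8-cell polysome replicate A (adjusted p = 0.019) and at -6.48 without replicate B (adjusted p = 0.0101). From 8-cell to morula 4 members differed, beside 12.5% of all genes. SMC1B fell further in polysomes than in the transcriptome (-4.44 ± 1.2 SE, adjusted p = 0.0161), as did SYCP1 (-5.36 ± 1.46 SE, adjusted p = 0.0185) and SYCP2 (-6.69 ± 1.67 SE, adjusted p = 0.0101), while HORMAD2 went the other way (8.25 ± 2.19 SE, adjusted p = 0.0168). The call of SMC1B was lost without 8-cell polysome replicate A (adjusted p = 0.153) or morula polysome replicate A (0.0757), and that of SYCP1 without 8-cell polysome replicate B (0.0503) or morula polysome replicate A (0.0572) or B (0.0659). SYCP2 turned to 2.19 without 8-cell polysome replicate B (adjusted p = 0.487), and HORMAD2 to 1.90 without morula polysome replicate B (adjusted p = 1). From morula to blastocyst SYCP2 differed (8.17 ± 1.70 SE, adjusted p = 0.00317), 1 of 10 members beside 12.3% of all genes. Its call held with each transcriptome or pool left out, and single fractions were not left out. Without morula polysome replicate B, STAG3 (9.39, adjusted p = 0.00487) and HORMAD2 (11.51, adjusted p = 0.0191) were called too.

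Other genes of the same processes gave 6 lists with 69 genes in the table, 66 of them in the model. Against the transcriptome, 27 were lower and 11 higher in GV polysomes, 35 and 10 in MII, 33 and 11 in 2-cell, 39 and 11 in 8-cell, 33 and 12 in morula and 20 and 10 in blastocyst. All genes had 17.7% lower and 22.2% higher in GV, 26.7% and 30.8% in MII, 21.9% and 29.1% in 2-cell, 31.0% and 28.0% in 8-cell, 25.2% and 26.5% in morula and 20.1% and 20% in blastocyst. Among the 5 other parts of the synaptonemal complex, TEX12, of the central element, was lower in polysomes in GV (105 against 8.5 CPM, adjusted p = 1.26e-05) and MII (184 against 7.66 CPM, adjusted p = 4.28e-07). Its transcriptome level rose from 84.7 CPM at the 8-cell stage to 255 CPM in morulae (adjusted p = 0.0132). SYCP2L, an oocyte relative of SYCP2, fell from 15.8 CPM in 2-cell to 1.78 CPM in 8-cell transcriptomes (adjusted p = 0.00145), and SYCE2 of the central element from 16.4 to 2.53 CPM (adjusted p = 0.00017).

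Of 15 genes of the other cohesin subunits, most of them shared with mitosis, and of the loaders and releasers of cohesin, 8 rose and 0 fell in the transcriptome from GV to MII. Of all 14612 genes, 966 rose and 1531 fell in that step. STAG2, the mitotic counterpart of STAG3, rose from 2.01 to 9.04 CPM (adjusted p = 0.011) and then from 3.93 CPM in 2-cell to 322 CPM in 8-cell transcriptomes (adjusted p = 4.27e-08). SMC3, which pairs with SMC1B or its mitotic form, fell from 807 to 202 CPM in that step (adjusted p = 2.53e-06). In GV polysomes 6 of the 15 were lower and 2 higher, beside 17.7% and 22.2% of all genes. In MII polysomes 12 were lower and 1 higher, beside 26.7% and 30.8%. The 2 higher in GV were MAU2, of the cohesin loader (13.3 against 73.6 CPM, adjusted p = 0.0016), and CDCA5, sororin (6.98 against 24.1 CPM, adjusted p = 0.00164).

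Of 8 genes that protect or cleave cohesin, 5 were lower and 2 higher in GV polysomes, beside 17.7% and 22.2% of all genes. ESPL1, the separase that cuts the kleisin, was higher (23 CPM in the transcriptome against 368 CPM in polysomes, adjusted p = 2.32e-08), as was PPP2R1A, a scaffold subunit of the phosphatase that guards it (15.4 against 435 CPM, adjusted p = 4.5e-10). SGO2, the shugoshin that recruits the phosphatase, was lower (149 against 12.1 CPM, adjusted p = 4.69e-05). Of 18 genes of double-strand breaks and recombination, 7 were lower and 1 higher in GV polysomes, beside 17.7% and 22.2% of all genes, and 12 lower and 2 higher at the 8-cell stage, beside 31.0% and 28.0%. SPATA22, the partner of MEIOB, stood at 1639 CPM in MII transcriptomes, was 64.3 CPM in MII polysomes (adjusted p = 1.38e-06), and fell from 556 to 51.3 CPM between 2-cell and 8-cell transcriptomes (adjusted p = 5.9e-06). MEI1, needed to form the breaks, was the gene that was higher in GV polysomes (4.41 against 48.7 CPM, adjusted p = 0.048).

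Of 13 crossover genes, 3 were lower and 3 higher in GV polysomes, beside 17.7% and 22.2% of all genes. MUS81, a structure-specific nuclease, was higher (25.9 against 193 CPM, adjusted p = 4.96e-07) and so was PRR19 (13.2 against 75.1 CPM, adjusted p = 0.000166), while CCNB1IP1 was lower (41.7 against 5.86 CPM, adjusted p = 6.65e-05). Of 7 genes that tie telomeres to the nuclear envelope in meiosis, 3 were lower and 3 higher in GV polysomes, beside the same shares. SUN2, an inner nuclear membrane protein that all cells use, was higher (7.24 against 135 CPM, adjusted p = 5.68e-08), and TERB1, which links telomeres to it in meiosis, was lower (209 against 35 CPM, adjusted p = 0.0031).

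For each member, the gene with the most similar transcriptome pattern was found by Pearson's r of log2(CPM + 1) over the 18 transcriptomes, given as a description. CROT followed SMC1B (r = 0.991), DIPK2A followed MEIOB (0.982), NUDT6 followed HORMAD2 (0.977) and NUF2 followed SYCP3 (0.976). GPATCH2 was closest to SYCP2 and CASR to STAG3 (both 0.968), BMT2 to HORMAD1 (0.962), DDIT3 to SYCP1 (0.958), PATE1 to DMC1 (0.947) and GPT to REC8 (0.897). With a pseudocount of 0.1 another gene came first for SYCP1, REC8, STAG3, MEIOB and DMC1. The 18 libraries share their stages, so any gene with the same steps scores high.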

How the data were processed

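The authors made all libraries with the Smart-seq V4 kit and Nextera XT and quantified them with Salmon, and they deposited expected counts per gene symbol for 138 libraries. Per the labels the build was UMD 3.1, whereas the study's methods name another assembly, so no coordinates are given. The Salmon version is not given in the sources used here. Of all deposited expected count values, 11.7% were not whole, and they were rounded for testing. F8 to F10 were summed within a gradient. The 12 polysome pools and 18 transcriptomes were fitted with edgeR 4.0.16 (R 4.3.3) in 1 model of 12 groups, with filterByExpr, TMM and the quasi-likelihood test. Light (F3 to F5) and heavy pools (24) were fitted the same way. The trend used genes with a mean of at least 1 CPM, log2(CPM + 1) and 100000 permutations of the fraction labels in Python 3.11.15. SE is the log2 fold change over the root of the F statistic. Alternatives were the likelihood ratio test, DESeq2 1.42.0, other scalings, no filter, other pools, separate models and the replicate letter as a block. A transcriptome, pool or gradient was also left out at a time, never a single fraction. Tests on simulated data covered only the edgeR fit for a single transcriptome step and the trend in GV oocytes. The other comparisons and the DESeq2 fits were not tested in this way. The members and the gene lists were chosen with earlier results of these data known. All 10 members are named; from each other list, at most the 2 called genes with the largest change in each direction per comparison; and for each member the most alike gene. Deviations of polysome pools and transcriptomes of the same replicate letter correlated at -0.0646 to 0.0236. Light and heavy pools of the same letter, which come from the same gradient, gave only -0.00524 to 0.146. This check therefore cannot tell whether the letters pair polysome pools with transcriptomes. Nothing in the labels says whether replicates came from separate animals, so p-values measure the spread between these samples. Floors of 3 counts cover counting error only.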

Additional observations from a re-analysis of the deposited data

Results flagged for a closer look

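In 5 cases the change of a member between stages differed between polysomes and transcriptome by the test of that difference. From 8-cell to morula the differences were -6.69 for SYCP2, -5.36 for SYCP1, -4.44 for SMC1B and 8.25 for HORMAD2 on the log2 scale, and from morula to blastocyst 8.17 for SYCP2. The first 4 each lost their call without a single polysome pool, and 8.17 for SYCP2 did not. Single fractions were not left out, and in blastocyst gradient B F8 held 268 SYCP2 counts, F9 19 and F10 0. Groups of 2 or 3 libraries are too small to look for a library that stands apart.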

How the results depend on the processing

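Counts of member calls over all steps or stages stayed within 1.5 times of the reported one, with these exceptions. Separate models for transcriptomes and polysomes gave 24 calls for 10 in the transcriptome, 2 for 14 in polysomes, 2 maternal members for 1 and 128 other pathway genes for 83. The likelihood ratio test gave 9 for 5 in the difference of changes, 9 for 1 in heavy against light fractions and 2 maternal members for 1. DESeq2 gave 7 in heavy against light fractions and 2 maternal members, and leaving out TMM factors gave 2 in heavy against light fractions. With the replicate block the counts were 10 in the transcriptome, 12 in polysomes, 5 in the difference of changes, 37 for 39 in polysomes against transcriptome, 2 in heavy against light fractions, 7 for 8 in the trend and 1 maternal member, and it moved the other pathway genes to 81 and 241 (for 83 and 252). Leaving out 1 library or pool at a time gave 8 to 12 calls in the transcriptome, 10 to 13 in polysomes, 4 to 8 in the difference of changes, 36 to 42 in polysomes against transcriptome, 0 to 6 in heavy against light fractions, 6 to 8 in the trend and 0 to 1 maternal members, where a lone remaining pool was assumed to vary like the other groups. Without 8-cell polysome replicate B, SYCP2 turned to 2.54 in polysomes and 2.19 in the difference of changes between 8-cell and morula. The cause of these moves was not tested. DESeq2's size factors moved the median of all genes in 8-cell polysomes against transcriptome from -0.26 to -0.50, and leaving out TMM factors moved that from MII to 2-cell transcriptomes to 0.46. Polysomes had 2 gradients a stage, and members under about 1 CPM rest on few counts.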

Other observations

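Of the 66 other pathway genes in the model, 6 rose and 28 fell in transcriptomes from 2-cell to 8-cell, beside 3887 and 3427 of all 14612 genes. Of the 5 other synaptonemal complex genes 0 rose and 3 fell, and of the 13 crossover genes 2 rose and 6 fell. HFM1, a helicase of crossover formation, went from 0 CPM in 2-cell to 0.437 CPM in 8-cell transcriptomes (adjusted p = 0.0142), RAD21L1, a meiotic kleisin, from 0 to 0.405 CPM (adjusted p = 0.0236), and RNF212B, another crossover gene, from 0.384 to 3.92 CPM (adjusted p = 0.0205). RAD21L1 had been at 0.413 CPM in MII and RNF212B at 0.67 CPM in GV transcriptomes, so the 8-cell stage is not where they were first seen. The summed level of 8 sperm markers was 1.67 to 3.95 CPM in the oocyte and 12 to 20 CPM in the morula and blastocyst transcriptomes. TNP2, a transition protein of the sperm nucleus, stood at 6.78 CPM in morulae and 8.34 CPM in blastocysts, and the protamine PRM1 at 0 CPM up to the 8-cell stage and 1.01 CPM in blastocysts. AKAP4, of the sperm tail, went the other way, from 2.82 CPM in GV to 0 CPM in blastocysts, and ODF1 from 0.306 to 0.0691 CPM.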
